A study of Mus musculus with 4 samples.

Results

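Genes of DNA replication and cell division were read in the zymogenic cells and the mucous neck cells of mouse gastric corpus glands. The genes came from a list of 46 and were found as probe sets whose annotation names exactly 1 gene. Of these, 45 were measured, among 19938 genes on the array. Ccnb1, which encodes cyclin B1, was not paired with a single-gene probe set in the annotation used and has no value here. The measured genes fall into 20 of S phase and its onset, 24 of mitosis and 1 of G1, the cyclin gene Ccnd1.

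The assay was the Affymetrix Mouse Gene 1.0 ST array, with 1 array for each of 4 groups. These were zymogenic cells of MIST1 knockout mice, called MIST1-null here, zymogenic cells of wild-type mice, neck cells of MIST1-null mice and neck cells of wild-type mice. All mice were adult, on a C57BL/6 background and without any treatment in the labels. The null mice are Mist1-/- per the design text, with no further description of the allele. MIST1, the product of Bhlha15, is a transcription factor that builds up the secretory machinery of cells such as zymogenic cells. Cells were cut from frozen sections by laser, zymogenic cells as those basal to the stain of the lectin GS-II and without the outline of parietal cells. How neck cells were outlined is not stated in the sources used here. Dissection used 5 MIST1-null and 4 wild-type mice with 2 caps each, and each array carried RNA pooled over several dissections and mice. With 1 array in each group, no difference has a replicate check and no test was made, and "higher" and "lower" describe these 4 arrays only.

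A dividing cell copies its DNA in S phase and separates the copies in mitosis. The genes for both steps are switched on in turn. E2F factors drive genes of replication at the end of G1, and the MuvB-based complexes with B-MYB and FOXM1 drive genes of mitosis later. In the corpus gland most division takes place among progenitors in the isthmus, just above the neck. Neck cells are held to turn into zymogenic cells as they move down to the gland base, and zymogenic cells rarely divide unless the tissue is injured.

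The promoters of the mitosis and the S phase genes differ in sequence, and 4 are shown as examples, not as typical of their groups. Top2a and Kif11 are mitosis genes that were lower in zymogenic cells of both genotypes. Mcm6 is a replication gene above the median level of all genes on every array, and was also lower in zymogenic cells of both genotypes. Blm went the other way. Each line gives the 250 bases before the transcription start, 5′ to 3′ on the strand of the gene, from RefSeq on GRCm38.p6. Capitals mark the CHR element (TTTGAA), the E2F site (TTTNGCGC) and the CCAAT box (CCAAT), each on either strand.
Top2a (chr11:99024190-99024439, minus strand): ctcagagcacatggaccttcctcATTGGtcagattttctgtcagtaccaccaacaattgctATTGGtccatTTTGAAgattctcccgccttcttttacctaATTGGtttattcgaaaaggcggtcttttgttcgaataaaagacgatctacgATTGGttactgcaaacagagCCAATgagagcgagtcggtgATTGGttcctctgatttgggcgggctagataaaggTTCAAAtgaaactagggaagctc
Kif11 (chr19:37376132-37376381, plus strand): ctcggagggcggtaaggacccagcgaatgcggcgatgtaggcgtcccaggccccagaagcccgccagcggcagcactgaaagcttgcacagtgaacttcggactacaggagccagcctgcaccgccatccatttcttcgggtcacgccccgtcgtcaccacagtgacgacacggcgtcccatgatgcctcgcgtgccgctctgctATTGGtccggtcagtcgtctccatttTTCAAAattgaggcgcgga
Mcm6 (chr1:128359706-128359955, minus strand): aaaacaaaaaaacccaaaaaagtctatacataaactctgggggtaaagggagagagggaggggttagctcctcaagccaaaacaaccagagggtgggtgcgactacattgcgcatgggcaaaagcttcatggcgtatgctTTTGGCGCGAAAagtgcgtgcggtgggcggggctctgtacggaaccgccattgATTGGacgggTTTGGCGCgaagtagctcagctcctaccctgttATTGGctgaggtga
Blm (chr7:80534999-80535248, minus strand): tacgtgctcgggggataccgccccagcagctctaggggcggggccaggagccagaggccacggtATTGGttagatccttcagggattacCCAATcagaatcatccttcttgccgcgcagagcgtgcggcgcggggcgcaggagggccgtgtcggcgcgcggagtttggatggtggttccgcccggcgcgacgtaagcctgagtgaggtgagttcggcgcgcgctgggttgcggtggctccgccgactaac

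Top2a held 2 CHR matches and 6 CCAAT boxes, with the CHR nearest the start at 23 bases before it and the nearest CCAAT box at 58. Kif11 held 1 CHR match at 19 bases and 1 CCAAT box at 45 bases before the start. Mcm6 held no CHR match and 3 E2F matches, of which those at 110 and 106 bases overlap on opposite strands and the other lay at 47 bases. Blm held 2 CCAAT boxes and neither of the other motifs.

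Over the window from 250 bases before to 50 after the start, CHR matches were found in 15 of 20 mitosis genes with a promoter in the table, or 75%, and in 1 of 16 S phase genes, or 6.25%. Among all 15614 genes of the arrays with a promoter the share was 17.3%. E2F matches ran the other way, with 1 of 20 mitosis genes (5.0%), 6 of 16 S phase genes (37.5%) and 2.11% of all genes. The S phase genes with an E2F match were Mcm3, Mcm5, Mcm6, Mcm7, Cdt1 and Uhrf1. The CCAAT box was in 18 of 20 mitosis genes (90%), 10 of 16 S phase genes (62.5%) and 41.7% of all genes. Other mitosis genes gave a similar CHR share, 26 of 36 or 72.2%, while other replication genes gave 6 of 35 or 17.1% for CHR and the same count for E2F. For the remaining motifs these lists differed less than the cell cycle genes did. E2F matches were in 4 of 36 other mitosis genes (11.1%), and the CCAAT box was in 58.3% of other mitosis and 51.4% of other replication genes. A match is a run of letters and was not tested as a binding site. Within the mitosis genes, CHR matches were found in 7 of 10 that were lower by 2-fold or more in zymogenic cells of both genotypes, and in 8 of 10 of the others.

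**Figure D1:**
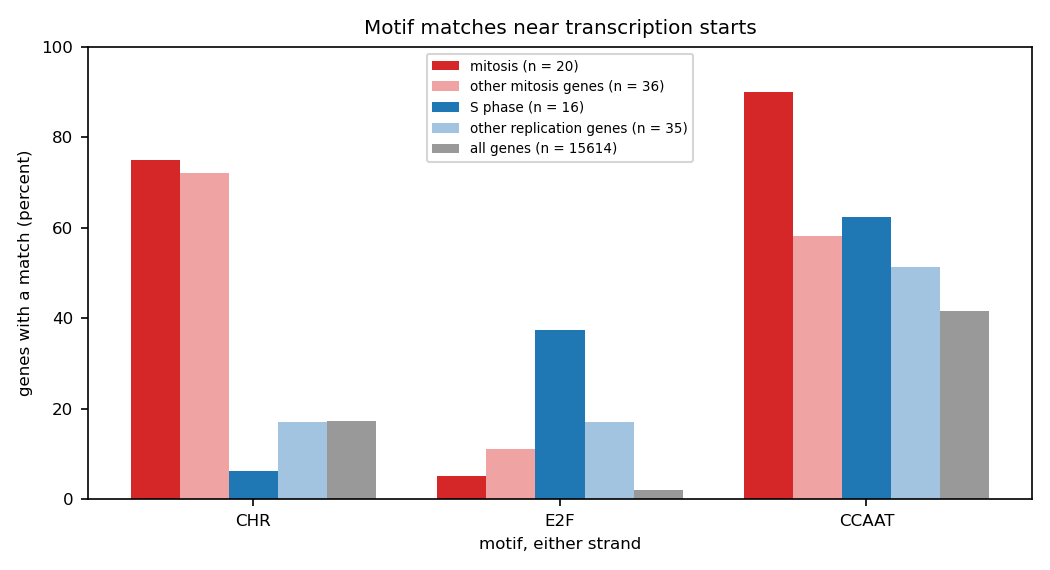
Percent of genes with at least 1 match to the CHR, E2F or CCAAT motif on either strand, from 250 bases before to 50 after a RefSeq transcription start. Bars are the mitosis and S phase genes, fixed lists of other mitosis and replication genes, and all genes with a promoter; CHR matches reach 75% in mitosis genes and 6.25% in S phase genes.

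The arrays were alike in overall level, with medians over all probe sets from 37.9 to 40.9 intensity units. The median over probe sets with 1 gene was 43.7, and this intensity is used below as a level mark, not as a measured background. By their mean over the 4 arrays 20 of 45 cell cycle genes (44.4%) reached the mark, near the 49.1% of all genes. These were 13 of 20 S phase genes and 7 of 24 mitosis genes. Bhlha15 read 22.0 in MIST1-null against 149.8 in wild-type zymogenic cells, and 20.2 in MIST1-null against 59.7 in wild-type neck cells, the direction its label gives. Whether its probes lie in the deleted part is not known here. The zymogenic product Chia1 read 9022 and 8209 in the MIST1-null and wild-type zymogenic arrays, against 1494 and 1806 in the MIST1-null and wild-type neck arrays. The zymogenic markers did not all run this way. Of 7, 6 were higher in zymogenic than in neck cells of MIST1-null mice and 5 in wild-type mice. At least 2-fold higher were 2 of 7 in MIST1-null and 3 of 7 in wild-type mice, against 4.09% and 5.85% of all genes. Lipf and Cym lay under the level mark on all 4 arrays, and Bhlha15 did on both MIST1-null arrays. Pgc, a pepsinogen gene, differed by only 0.29 and 0.20, and the pepsinogen gene Pga5 ran opposite, with 20.4 and 31.0 in MIST1-null and wild-type zymogenic cells against 1884 and 1350 in MIST1-null and wild-type neck cells. Muc6, the gland mucin of neck cells, read 20.7 and 26.7 in zymogenic against 2980 and 2511 in neck cells in the same order of genotypes.

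Cell cycle genes were lower in zymogenic than in neck cells of both genotypes. A difference of 2-fold or more towards lower values in zymogenic cells was seen for 17 of 45 genes in MIST1-null mice, where 3.89% of all genes had one, and for 15 of 45 in wild-type mice, where 5.29% had one. At least 2-fold higher were 0 of 45 in MIST1-null mice, against 4.09% of all genes, and 2 of 45 in wild-type mice, against 5.85%. In MIST1-null mice 39 of 45 were below 0, and in wild-type mice 33 of 45. The median log2 difference over all 45 was -0.85 in MIST1-null and -0.59 in wild-type mice, while the median over all genes was 0.05 in each. Both neck arrays read above both zymogenic arrays for 29 of 45 genes, where 16.9% of all genes did so. The reverse held for 3 genes, Mcm2, Ccne1 and Blm, where it held for 23.1% of all genes. In captured tissue, fewer dividing cells and less RNA per dividing cell cannot be told apart.

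**Figure D2:**
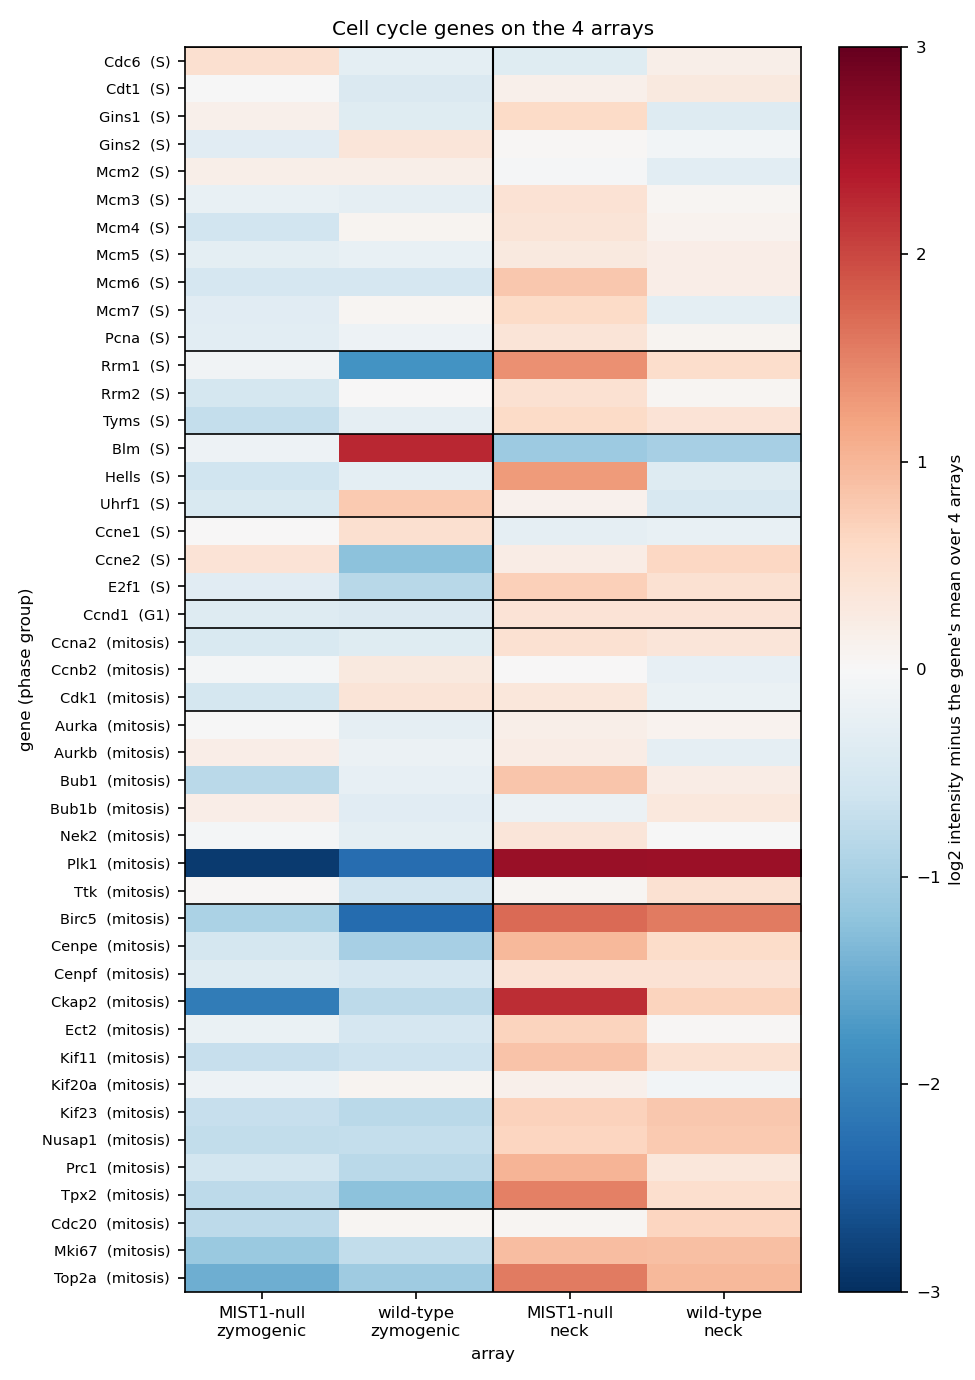
Log2 intensity of each of the 45 measured genes on each array, as the difference from the mean of that gene over the 4 arrays (colour), with genes grouped by role and the phase in brackets. Most rows are blue in the zymogenic arrays on the left and red in the neck arrays on the right, and Blm runs the other way.

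Many of these values are low, which limits the size of the differences. In wild-type mice 0 of the 15 lower genes reached the level mark in zymogenic cells, although 11 of them did in neck cells. In MIST1-null mice 4 of the 17 reached it in zymogenic and 15 in neck cells. With 32 added to every intensity before the logarithm, which shrinks differences of dim genes, 9 genes in MIST1-null and 5 in wild-type mice were still at least 2-fold lower, where 1.11% and 1.57% of all genes were. Of the 20 genes with a mean at the mark or above, 6 were at least 2-fold lower in MIST1-null mice and 5 in wild-type mice. Of all genes so filtered, 4.03% and 6.35% were. This filter is not independent of the difference: Plk1 and Top2a pass it on their neck values, with both zymogenic values under the mark.

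The mitosis genes carried most of the difference. In each genotype 12 of 24 were lower by 2-fold or more in zymogenic cells, and 11 of these were the same genes: Plk1, Birc5, Top2a, Ckap2, Kif11, Kif23, Tpx2, Prc1, Nusap1, Cenpe and Mki67. Of all genes, 1.22% were lower by 2-fold or more in both genotypes. Most of these mitosis genes are dim. With 32 added, Plk1, Birc5 and Top2a stayed at least 2-fold lower in both genotypes, and the rest of the 11 did not. The median over the 24 was -1.14 in MIST1-null and -0.98 in wild-type mice. Below 0 were 23 of 24 in MIST1-null and 20 of 24 in wild-type mice, and 0 of 24 were at least 2-fold higher in either.

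Plk1, the kinase that drives entry into and passage through mitosis, had the largest difference. It read 8.75 in MIST1-null and 13.3 in wild-type zymogenic cells, against 386.8 in MIST1-null and 379.2 in wild-type neck cells. Both neck arrays stood far above both zymogenic arrays, and the 2 neck values were nearly equal. The log2 difference was -5.47 in MIST1-null and -4.83 in wild-type mice, or -3.36 and -3.18 with 32 added. The other mitotic kinases differed far less. Aurka, which matures the spindle poles, ranged from 50.5 to 69.2 over the 4 arrays, and Aurkb, the kinase of the chromosomal passenger complex, from 28.2 to 39.8. Bub1, a kinase of the spindle checkpoint, read 14.9 and 21.5 in MIST1-null and wild-type zymogenic cells, against 46.1 and 29.9 in MIST1-null and wild-type neck cells. Its difference was -1.63 in MIST1-null and -0.47 in wild-type mice. Bub1b, which encodes the checkpoint protein BUBR1, read 34.4 in MIST1-null zymogenic cells against 26.4 in MIST1-null neck cells, and 23.6 against 37.3 in the wild-type pair, so its direction differed between genotypes. Ttk, the checkpoint kinase MPS1, differed by -0.03 in MIST1-null and -1.03 in wild-type mice. Nek2, a kinase of centrosome separation, differed by -0.43 and -0.27 and stayed under the level mark on all 4 arrays.

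Genes of the spindle, the kinetochore and cytokinesis were lower in zymogenic cells almost throughout, by very unequal amounts. Of 11, 8 were lower by 2-fold or more in zymogenic cells of both genotypes, where 1.22% of all genes were. Both neck arrays read above both zymogenic arrays for 10, against 16.9% of all genes. The values are mostly dim: by their mean 1 of the 11 reached the level mark, and on each zymogenic array 1 did. Birc5 encodes survivin, the passenger complex subunit that brings Aurora B to the centromere. It read 50.4 in MIST1-null and 19.6 in wild-type zymogenic cells, against 317.6 in MIST1-null and 283.5 in wild-type neck cells. The differences were -2.66 in MIST1-null and -3.86 in wild-type mice, and -2.09 and -2.61 with 32 added. Ckap2, a microtubule-bound spindle protein, read 4.37 in MIST1-null and 10.8 in wild-type zymogenic cells, against 86.3 in MIST1-null and 29.7 in wild-type neck cells. Its difference was -4.30 in MIST1-null mice and -1.46 in wild-type mice, but the values of 3 of its 4 arrays lay under the level mark, and with 32 added the differences were -1.70 and -0.53.

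Tpx2, which activates Aurora A on the spindle, read 12.3 in MIST1-null and 9.07 in wild-type zymogenic cells, against 61.0 in MIST1-null and 30.5 in wild-type neck cells. The differences were -2.31 in MIST1-null and -1.75 in wild-type mice. The motor gene Kif11, whose protein pushes spindle poles apart, differed by -1.55 and -1.08, and Kif23, a motor of the central spindle, by -1.38 and -1.62, in MIST1-null and wild-type mice. Prc1, which bundles microtubules at the midzone, differed by -1.57 and -1.14, Nusap1, a spindle microtubule protein, by -1.37 and -1.50, and the kinetochore motor Cenpe by -1.48 and -1.55, in the same order. Cenpf, another kinetochore protein, differed by -0.81 and -0.94, and Ect2, the exchange factor that starts the cleavage furrow, by -0.85 and -0.55. Kif20a, a motor of late mitosis, was the exception of the group, with 37.5 and 43.9 in MIST1-null and wild-type zymogenic cells against 46.4 and 39.6 in MIST1-null and wild-type neck cells. With 32 added, Kif11, Kif23, Prc1, Nusap1 and Cenpe were less than 2-fold lower in each genotype.

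Top2a, the topoisomerase that untangles sister chromatids, read 20.0 in MIST1-null and 26.3 in wild-type zymogenic cells, against 163.8 in MIST1-null and 109.1 in wild-type neck cells. The differences were -3.03 in MIST1-null and -2.05 in wild-type mice. A dimmer probe set named for the same gene disagreed with it: it read 18.6 against 30.4 in the MIST1-null pair and 37.9 against 8.81 in the wild-type pair, with 0 of its 4 values at the level mark. Mki67, the standard marker of dividing cells, read 15.4 and 20.1 in MIST1-null and wild-type zymogenic cells, against 63.6 and 62.4 in MIST1-null and wild-type neck cells. Its differences were -2.05 in MIST1-null and -1.63 in wild-type mice. Cdc20, the activator of the anaphase-promoting complex, read 40.8 in MIST1-null and 73.0 in wild-type zymogenic cells, against 72.3 in MIST1-null and 109.8 in wild-type neck cells. Its differences were -0.82 and -0.59, and the wild-type zymogenic value lay above the MIST1-null neck value.

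The mitotic cyclins and Cdk1 did not share the large difference. Cdk1, the kinase at the centre of mitotic entry, read 54.4 in MIST1-null and 101.9 in wild-type zymogenic cells, against 99.8 in MIST1-null and 68.0 in wild-type neck cells. It was thus lower in zymogenic cells of MIST1-null mice, by -0.88, and higher in those of wild-type mice, by 0.58. Ccnb2, a B-type cyclin gene, read 73.8 and 93.8 in MIST1-null and wild-type zymogenic cells, against 77.1 and 65.3 in MIST1-null and wild-type neck cells. Ccna2, the cyclin of S and G2 phase, differed by -0.90 in MIST1-null and -0.73 in wild-type mice.

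**Figure D3:**
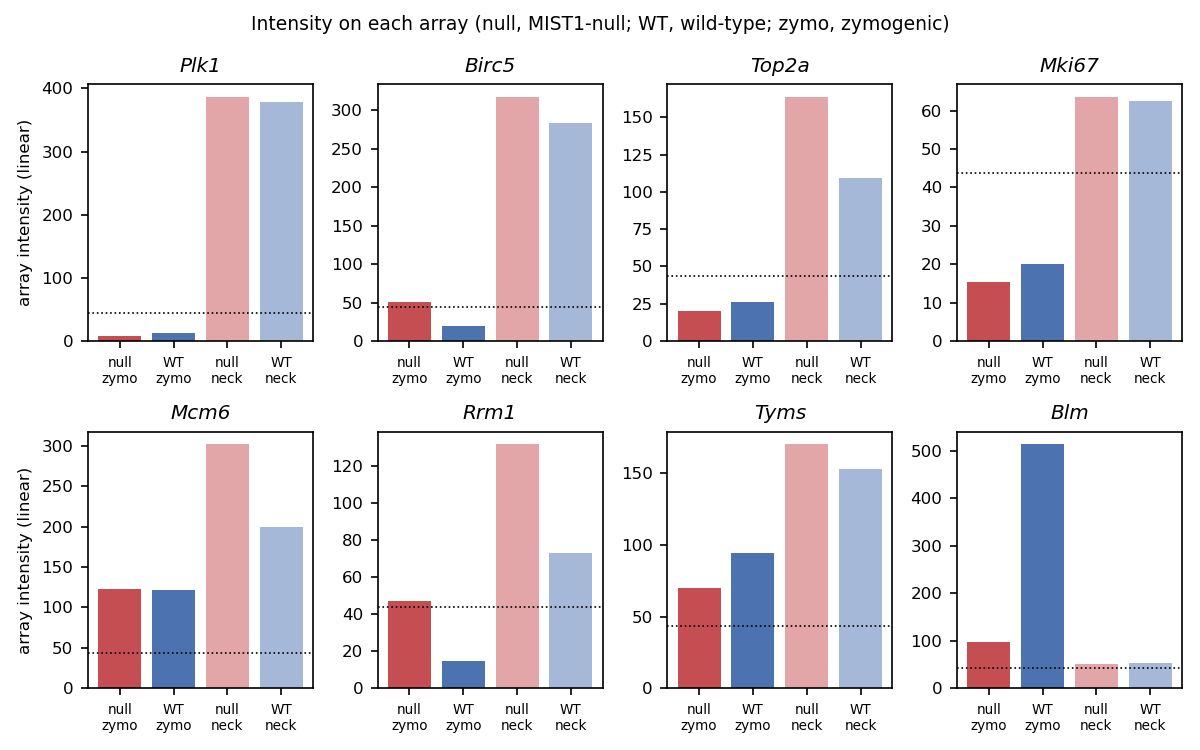
Linear array intensity of 8 genes on the 4 arrays, each bar being 1 array of pooled RNA and the dotted line the median of probe sets with 1 gene (43.7). Plk1, Birc5, Top2a and Mki67 are higher in both neck arrays than in both zymogenic arrays, Mcm6 and Tyms are above the line on every array, and Blm peaks in wild-type zymogenic cells at 514.7.

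S phase genes differed less between the cell types and less uniformly. At least 2-fold lower in zymogenic cells of MIST1-null mice were 5 of 20 (Hells, Rrm1, Mcm6, Tyms and E2f1), against 3.89% of all genes. In wild-type mice 3 of 20 were (Rrm1, Ccne2 and E2f1), against 5.29%. At least 2-fold higher were 0 of 20 in MIST1-null mice and 2 of 20 (Uhrf1 and Blm) in wild-type mice. Of all genes, 4.09% and 5.85% were. The median over the 20 was -0.63 in MIST1-null and -0.15 in wild-type mice. Below 0 were 15 of 20 in MIST1-null and 12 of 20 in wild-type mice. Both neck arrays read above both zymogenic arrays for 10 of 20, where 16.9% of all genes did so.

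The genes that load and run the replication fork mostly differed by less than 2-fold. Of 11, 1 was lower by 2-fold or more in zymogenic cells of MIST1-null mice and 0 in wild-type mice. Of all genes, 3.89% and 5.29% were, so these counts are near the background. Their medians were -0.58 and -0.25, with 9 and 7 of 11 below 0, in the same order. Both neck arrays read above both zymogenic arrays for 6 of 11, against 16.9% of all genes. Mcm6, a subunit of the MCM helicase ring, read 122.6 in MIST1-null and 122.1 in wild-type zymogenic cells, against 302.1 in MIST1-null and 199.7 in wild-type neck cells. Both neck values lay above both zymogenic values, and the differences were -1.30 in MIST1-null and -0.71 in wild-type mice. The other subunits ranged from -0.97 for Mcm4 to 0.22 for Mcm2 in MIST1-null mice, and from -0.42 for Mcm5 to 0.49 for Mcm2 in wild-type mice. Pcna, the sliding clamp, was the brightest gene of the set, with 470.8 and 526.1 in MIST1-null and wild-type zymogenic cells against 773.7 and 626.8 in MIST1-null and wild-type neck cells. Its differences were -0.72 and -0.25. A further probe set named Pcna gave the same cell type differences to 2 decimals. Cdc6, which loads the MCM ring, read 49.6 in MIST1-null and 29.2 in wild-type zymogenic cells, against 27.5 in MIST1-null and 40.1 in wild-type neck cells, so its difference was 0.85 in MIST1-null and -0.46 in wild-type mice. Cdt1, its partner in loading, differed by -0.18 and -0.72, and the GINS subunit genes Gins1 by -0.42 and 0.02 and Gins2 by -0.36 and 0.45.

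All 3 genes of nucleotide supply read higher in both neck arrays than in both zymogenic arrays. Rrm1 encodes the large subunit of ribonucleotide reductase, which makes the building blocks of DNA. It read 47.3 in MIST1-null and 14.7 in wild-type zymogenic cells, against 131.7 in MIST1-null and 73.2 in wild-type neck cells. The differences were -1.48 in MIST1-null and -2.32 in wild-type mice, or -1.05 and -1.17 with 32 added. Tyms, thymidylate synthase, read 70.0 in MIST1-null and 94.4 in wild-type zymogenic cells, against 170.4 in MIST1-null and 152.7 in wild-type neck cells. It was one of few with all 4 values above the level mark, and the differences were -1.28 and -0.69. Rrm2, the small subunit, differed by -0.97 in MIST1-null and -0.04 in wild-type mice.

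Genes of the G1/S switch and of S phase chromatin were mixed. E2f1, a transcription factor that turns on replication genes, differed by -1.08 in MIST1-null and -1.30 in wild-type mice, with 0 of its 4 values at the level mark. Ccne2, an E-type cyclin of S phase entry, read 86.2 in MIST1-null and 27.9 in wild-type zymogenic cells, against 75.9 in MIST1-null and 99.9 in wild-type neck cells. Its difference was 0.18 in MIST1-null and -1.84 in wild-type mice, and the wild-type zymogenic array alone was low. Ccne1, the other E-type cyclin, read 54.7 and 75.5 in MIST1-null and wild-type zymogenic cells, against 45.1 and 46.2 in MIST1-null and wild-type neck cells, and was higher by 0.28 and 0.71. The G1 cyclin gene Ccnd1 differed by -0.79 in MIST1-null and -0.86 in wild-type mice.

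Blm, the RecQ helicase that resolves recombining DNA, was the clear exception. It read 96.9 in MIST1-null and 514.7 in wild-type zymogenic cells, against 50.4 in MIST1-null and 54.0 in wild-type neck cells. All 4 values lay above the level mark and 1 array, wild-type zymogenic, stood apart. The difference between cell types was 0.94 in MIST1-null and 3.25 in wild-type mice, or 0.64 and 2.67 with 32 added. Uhrf1, which carries DNA methylation through replication, read 26.1 in MIST1-null and 61.8 in wild-type zymogenic cells, against 39.4 in MIST1-null and 25.8 in wild-type neck cells. Hells, a chromatin remodeller of the same process, read 23.0 in MIST1-null and 28.4 in wild-type zymogenic cells, against 85.2 in MIST1-null and 27.0 in wild-type neck cells, so that only the MIST1-null neck array was above the mark.

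The median difference of S phase genes minus that of mitosis genes was 0.50 in MIST1-null and 0.83 in wild-type mice. The gap had the same sign under every alternative tried for these 2 comparisons, but its size was not firm. In wild-type mice it was 0.36 with 32 added and 0.34 among genes with a mean at the level mark. In MIST1-null mice it was 0.18 when genes on the border between phases were left out (Blm, E2f1, Ccne1, Ccne2, Ccna2, Mki67 and Top2a), 0.22 without Plk1, Birc5 and Blm, 0.28 with 32 added, 0.30 among genes with a mean at the level mark and 0.26 with the dimmer probe set of Top2a. Lists of other genes did not show a like gap in wild-type mice. There, 41 other replication genes had a median of -0.44 and 44 other mitosis genes had -0.33. In MIST1-null mice the same lists had -0.18 and -0.65.

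**Figure D4:**
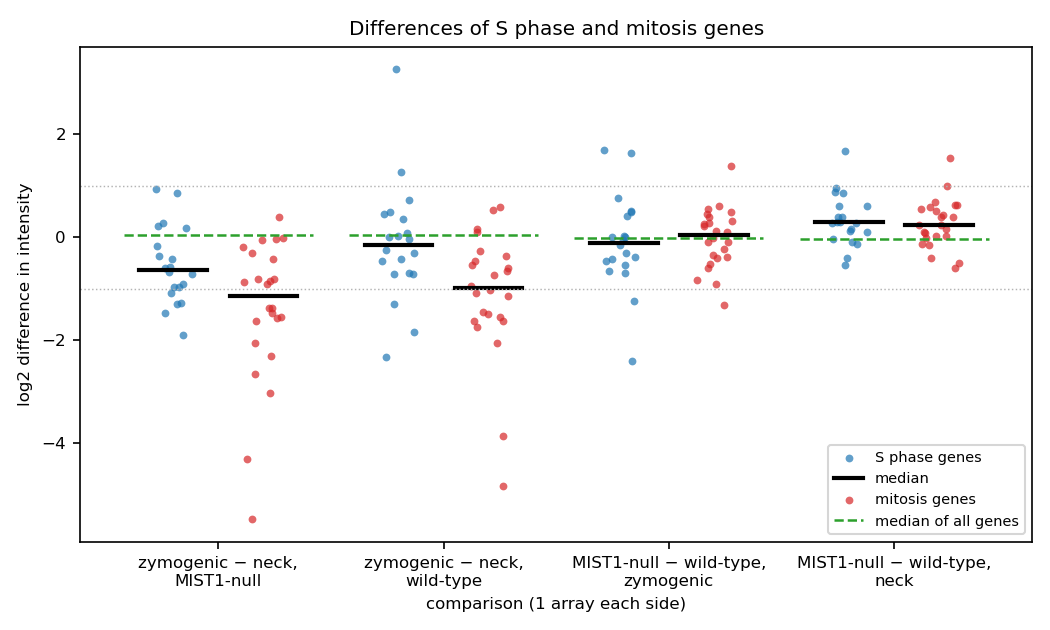
Log2 differences in intensity of the 20 S phase genes (blue) and 24 mitosis genes (red) in the 4 comparisons, each from 1 array against 1 array. Black bars are the medians, green dashed lines the medians of all genes and dotted lines 2-fold; the mitosis medians in the cell type comparisons are -1.14 in MIST1-null and -0.98 in wild-type mice.

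The cell type differences of the genotypes rest on separate arrays. Across the 24 mitosis genes they had a Pearson correlation of 0.80, across the 20 S phase genes 0.44, and across all 19938 genes 0.33. These correlations are across genes, which are not independent replicates, and are given as descriptions. The cell type difference was lower in MIST1-null than in wild-type mice for 15 of 20 S phase genes, by a median of -0.45, and for 16 of 24 mitosis genes, by a median of -0.27. Over all genes it was lower for 9832 of 19938, with a median of 0.01. The other replication genes did not follow: it was lower for 19 of 41, with a median of 0.08. Among other mitosis genes it was lower for 27 of 44, a majority as well, but with a median of only -0.05.

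**Figure D5:**
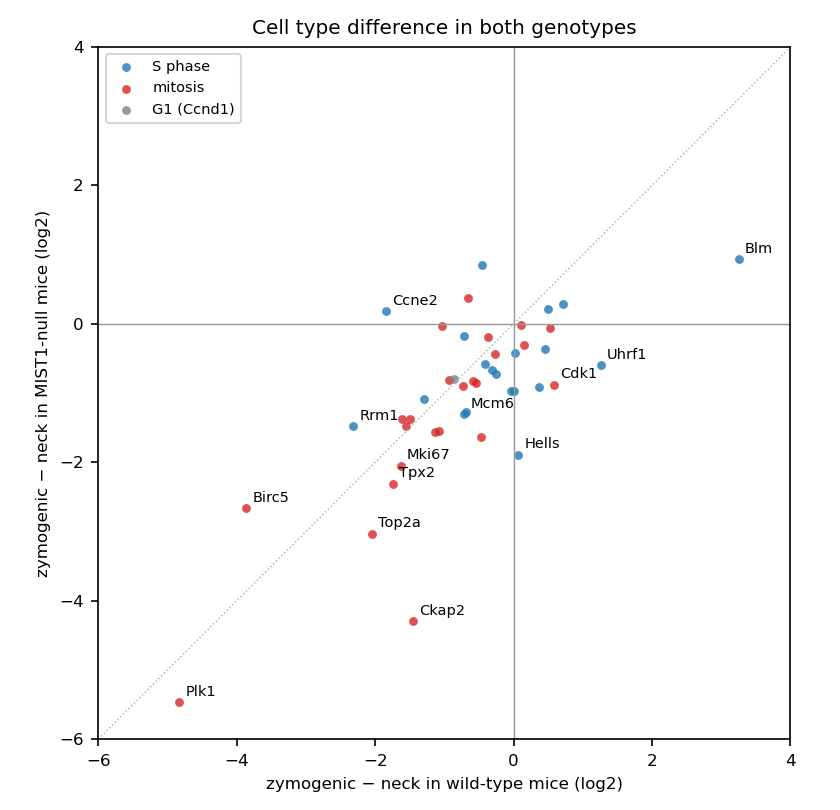
Log2 difference of zymogenic minus neck cells in wild-type mice (horizontal) against the same in MIST1-null mice (vertical) for the 45 genes, coloured by phase, with a dotted line of equality. Mitosis genes spread along the line down to Plk1, at -5.47 in MIST1-null and -4.83 in wild-type mice, while Blm, Uhrf1, Hells and Ccne2 lie off it.

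Between genotypes the cell cycle genes differed little in zymogenic cells. At least 2-fold higher in MIST1-null zymogenic cells were 3 of 45, where 4.23% of all genes were, and 3 were at least 2-fold lower, where 5.85% were, so both counts were near the background. The median was -0.11 for S phase and 0.04 for mitosis genes, against -0.01 over all genes. Higher in MIST1-null than in wild-type zymogenic cells were Rrm1 (1.69), Ccne2 (1.63) and Birc5 (1.37), and lower were Blm (-2.41), Ckap2 (-1.31) and Uhrf1 (-1.24). With 32 added, 0 of the higher genes kept a 2-fold difference, where 0.833% of all genes had one, and Blm alone of the lower, where 0.898% had one. For Rrm1, Ccne2 and Birc5 the lowest value of the 4 was that of wild-type zymogenic cells, and for Blm and Uhrf1 the highest was. For Ckap2 the lowest was that of MIST1-null zymogenic cells. These genes were picked by the difference between the zymogenic arrays, which by itself makes an extreme value there likely.

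In neck cells the genotype difference was small and mostly in 1 direction. Of 45 genes, 33 were above 0 in MIST1-null against wild-type neck cells, or 73.3%, where 47.3% of all genes were. At least 2-fold higher were 3 of 45, where 1.67% of all genes were, and 0 were at least 2-fold lower, where 2.79% were. The median was 0.28 for S phase and 0.23 for mitosis genes, against -0.03 over all genes, so that the phases were alike. The genes at 2-fold were Hells (1.66), Ckap2 (1.54) and Tpx2 (1.00), each under the level mark in wild-type neck cells, and 0 kept 2-fold with 32 added, where 0.14% of all genes reached it. Lowest were Cdc20 (-0.60), Cdc6 (-0.55) and Bub1b (-0.50). The MIST1-null neck array held the highest of the 4 values for 28 of 45 genes, or 62.2%, where it did so for 19.7% of all genes. The wild-type neck array held it for 9 of 45, and for 4282 of all 19938 genes. These counts also carry the cell type difference, so they do not measure the genotype difference alone. The list of 44 other mitosis genes had 29 above 0 and a median of 0.13 in this comparison, and 41 other replication genes had 22 above 0 and a median of 0.05.

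Further genes of the pathway came from lists of replication, mitosis, G1 and inhibitor genes. Of 44 other mitosis genes, 13 were lower by 2-fold or more in zymogenic cells of MIST1-null mice and 10 in wild-type mice. Of all genes, 3.89% and 5.29% were. At least 2-fold higher were 0 of the 44 in either genotype, against 4.09% and 5.85% of all genes. By their mean, 8 of the 44 reached the level mark. The condensin subunit gene Smc4 differed by -1.16 and -1.18 in MIST1-null and wild-type mice, and Stmn1, which destabilises microtubules, by -1.05 and -1.37. Of 41 other replication genes, 3 (7.32%) were at least 2-fold lower in MIST1-null and 6 (14.6%) in wild-type mice. Gmnn encodes geminin, the inhibitor of Cdt1, and read 120.3 in MIST1-null and 117.1 in wild-type zymogenic cells, against 289.4 in MIST1-null and 419.3 in wild-type neck cells. Rpa3, a subunit of the single-strand binding protein, differed by -2.41 and -1.40.

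Regulators of G1 followed the mitosis genes only in part. Of 22 such genes, 3 (13.6%) were lower by 2-fold or more in zymogenic cells of MIST1-null mice and 1 (4.55%) in wild-type mice. Of all genes, 3.89% and 5.29% were. Ccnd2, a D-type cyclin gene, was the one at least 2-fold higher in both, with 1511 in MIST1-null and 1328 in wild-type zymogenic cells, against 620 in MIST1-null and 465.4 in wild-type neck cells. Its differences were 1.29 and 1.51, opposite to those of Ccnd1. Of 13 inhibitor and checkpoint genes, 3 were at least 2-fold lower in MIST1-null and 3 in wild-type mice, or 23.1% in each, above those shares of all genes. Pkmyt1, the kinase that holds Cdk1 inactive, read 90.1 and 54.1 in MIST1-null and wild-type zymogenic cells, against 263 and 226.5 in MIST1-null and wild-type neck cells, and Cdkn2c, an inhibitor of the G1 kinases, differed by -1.07 and -1.37. Between genotypes, E2f4, a repressive E2F factor, was higher in MIST1-null cells of both types, by 1.24 in zymogenic and 1.39 in neck cells. Its wild-type values, 26.9 in zymogenic and 41.3 in neck cells, lay under the level mark. E2f5, of the same kind, differed by -2.31 and -0.39 and Mad2l1, a checkpoint protein, by -1.71 and -0.68. In zymogenic cells 4 of 41 other replication genes (9.76%) were 2-fold or more above wild-type in MIST1-null mice. Of all genes, 4.23% were. The 4 were Orc2 (1.21) and Orc5 (1.45) of the origin recognition complex, the clamp loader gene Rfc3 (1.23) and fork protection gene Tipin (1.54). Their wild-type zymogenic values, 29.5, 23.8, 20.1 and 23.4 in that order, lay under the level mark. As far below wild-type were 3 of the 41 (7.32%), and 5.85% of all genes. The 3 were the primase genes Prim1 (-1.44) and Prim2 (-1.48) and the flap nuclease gene Fen1 (-1.17). In MIST1-null zymogenic cells Prim1 read 24.5 and Prim2 14.4, under the mark, and Fen1 read 91.8.

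Markers of other cells moved with cell type as well, and their part in these results was not tested. Summed over 9 parietal cell markers, the intensity was 8738 in MIST1-null and 4900 in wild-type zymogenic cells, against 10268 in MIST1-null and 9457 in wild-type neck cells. Over 10 fibroblast and smooth muscle markers it was 1745 and 1471 in MIST1-null and wild-type zymogenic cells, against 410 and 620 in MIST1-null and wild-type neck cells, with 9 and 10 of the 10 higher in zymogenic cells. Over 10 immune markers it was 584 and 715 against 314 and 462, with 8 and 9 of the 10 higher in zymogenic cells, in the same order. Over 8 endocrine markers it was 13034 and 8988 against 3808 and 5895, with 7 and 8 of the 8 higher. Over 5 surface mucous pit markers it was 10762 and 8977 against 6670 and 6761, with 5 of the 5 higher in each genotype. The 6 mucous neck markers summed to 689 and 1839 in zymogenic against 11845 and 9616 in neck cells, with 5 of the 6 lower in zymogenic cells of each genotype. Between genotypes in neck cells, where the cell cycle genes were slightly higher in MIST1-null mice, 9 of 10 fibroblast and smooth muscle and 7 of 8 endocrine markers were lower in MIST1-null mice, and 5 of 6 mucous neck markers were higher. In zymogenic cells 9 of 9 parietal markers were higher in MIST1-null than in wild-type mice, with a median of 0.97.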

How the data were processed

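RNA from 4 pools of laser-captured cells was amplified and hybridised to 1 array each, and per the labels' protocols the RNA came from several dissections and several mice. The authors deposited linear intensity values per probe set, and per the series design text the arrays were compared with dChip. The background correction, probe summary and scaling are not stated in the sources used here. Signal over background is unknown, and having 1 array a group limits the precision.

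Of 35512 probe sets, 21789 were paired with 1 gene, 1621 with several and 12102 with none in the platform annotation. Symbols were checked by Entrez identifier against RefSeq for 21698 probe sets, and 0 changed. A gene with several probe sets (999 of 19938) was read from its probe set of highest mean. Intensities under 1 were set to 1 before log2 was taken. Differences are zymogenic minus neck and MIST1-null minus wild-type, counted at 2-fold without a filter on low values. No test was run, since each group has 1 array. The counting was tested on simulated data, with planted changes larger than 2-fold, in brighter genes and with less noise than here. That test does not cover 2-fold calls on dim genes.

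All values are given for genes that reach the median level by their mean and differ by 2-fold in any comparison, and for the 3 largest differences each way. Other pathway genes are named where they reach that mean and differ by 2-fold between cell types in both genotypes, or between genotypes in either cell type. Mki67 and other genes named beyond this rule were chosen after their values were seen. The genes, the lists and the phases were chosen with earlier results of these data known. Promoters came from a RefSeq table for GRCm38.p6, which held 36 of the 45 genes. Alternatives were a pseudocount of 32, quantile normalization, median centring, 2 filters on low values, the mean over probe sets and narrower phase groups. Python 3.11.15, numpy 2.4.6 and pandas 2.3.3 were used.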

Additional observations from a re-analysis of the deposited data

Results flagged for a closer look

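Results are named here where the same contrast ran in opposite directions on its separate arrays, by at least 1.5-fold on each side for a gene and by at least 0.1 on the log2 scale for a median, sizes chosen after the data were seen. With 1 array per group, none of these differences of direction was tested. The S phase median was -0.11 for MIST1-null minus wild-type zymogenic cells and 0.28 for MIST1-null minus wild-type neck cells. Ckap2 ran the same way, with -1.31 in zymogenic and 1.54 in neck cells, and its zymogenic values lay under the level mark. Uhrf1 did so too, with -1.24 in zymogenic and 0.61 in neck cells. Read by cell type, the difference of Uhrf1 was -0.60 in MIST1-null and 1.26 in wild-type mice, and 1 of its 4 values, in wild-type zymogenic cells, reached the level mark.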

How the results depend on the processing

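The 12 medians and gaps between phases were recomputed under 7 alternatives, and under 2 more chosen after the data were seen, and a move of under 0.25 log2 units was taken as none. Quantile normalization, median centring, the mean over probe sets and the other Top2a probe set moved 0 of 12 that far. The pseudocount of 32 moved the mitosis median to -0.61 in MIST1-null and -0.45 in wild-type mice for the cell type difference, the S phase median to -0.34 in MIST1-null mice, and the gap to 0.36 in wild-type mice. The filter on the mean over 4 arrays, which leaves 13 S phase and 7 mitosis genes, gave mitosis medians of -0.88 in MIST1-null and -0.59 in wild-type mice and a gap of 0.34 in wild-type mice. For MIST1-null minus wild-type zymogenic cells it gave a mitosis median of -0.40 and a gap of 0.24. The filter on the higher of 2 arrays gave a mitosis median of -1.55 and a gap of 0.90 between cell types in MIST1-null mice. Between genotypes in zymogenic cells it gave a mitosis median of -0.29 and a gap of 0.13. Of 24 mitosis genes, 17 reached the mark on the MIST1-null neck array and 4 on the MIST1-null zymogenic array. Both filters can pass a gene on its neck values, so neither is a separate check on the cell type difference. Narrow phase groups gave a mitosis median of -0.88 and a gap of 0.18 in MIST1-null mice. Without Plk1, Birc5 and Blm, the gap was 0.22 in MIST1-null and 0.58 in wild-type mice. Genes lower by 2-fold or more in zymogenic cells numbered 9 in MIST1-null and 5 in wild-type mice with the pseudocount and 6 and 5 with the filter on the mean, against 17 and 15 without either. Genes higher by 2-fold or more in MIST1-null mice numbered 0 in zymogenic and 0 in neck cells with the pseudocount, against 3 and 3 without it. Between genotypes in zymogenic cells, the mitosis median and the gap thus changed sign under both filters, while the S phase median stayed below 0 under every setting. With the mean over its probe sets, Top2a was at 0.03 for zymogenic minus neck cells in wild-type mice, near no difference, since its probe sets stood at -2.05 and 2.10. The cause of these moves was not tested beyond the smaller number of genes under a filter. No paired analysis was possible because each group has 1 array and no result comes from a test.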
